A study of Mus musculus with 9 samples.

Results

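Apelin (Apln) is a secreted peptide and Aplnr, also called APJ, is its G protein-coupled receptor. The genes were found on the arrays by their symbols, taking each probe set whose platform annotation names that gene alone, which gave 1 probe set for Apln and 2 for Aplnr, or 2 of the 18194 genes that the arrays name in this way. Values are log2 expression values, 1 array per sample, in 3 groups of 3 arrays of mouse brain. Embryonic fragments are microvascular fragments, short pieces of small vessels, from brains of NMRI embryos at embryonic day 18.5. Rest of brain is the brain tissue of such embryos without those fragments, and adult fragments are the same kind of preparation from mice aged 1 year whose strain is given as C57/SV129 mixed. Of the adult mice 2 were male and 1, replicate 2, was female. The labels name no transgene, mutation or treatment in any group, give no sex for the embryos and do not say whether animals were pooled. They call the 3 arrays of each group biological replicates, and every mean ± SD is over n = 3 arrays. Adult and embryonic fragments differ in age, in strain and in the RNA extraction kit, and the effects of these cannot be told apart.

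In vessels, apelin is made by endothelial cells, above all by the tip cells that lead a growing sprout, and acts on Aplnr on nearby endothelial cells, where the receptor is best known from veins and from the stalk of the sprout. The precursor is cut by proprotein convertases into short active peptides, and peptidases such as neprilysin inactivate them. The receptor signals through inhibitory G proteins, G13 and arrestins, and lack of oxygen induces Apln through the hypoxia-inducible factors. Apela (elabela or toddler) is the other ligand of the receptor. Both genes were chosen by their log2 values in these same 3 groups, known before the choice, so their differences are given as a description, with no test.

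In their endothelial and neuronal markers the kinds of sample matched their labels. Of 11 endothelial markers on the array all 11 lay at or above a value of 4, taken here as the edge of background, on every fragment array of either age, while Pecam1, Tie1, Erg and Icam2 lay under 4 on every array of rest of brain. The mean log2 value over the 11 was 12.68 to 13.04 in embryonic fragments, at most 5.48 in rest of brain and 12.47 to 12.70 in adult fragments. Over 10 neuronal markers it was 5.07 to 5.92, 10.65 to 10.88 and 2.82 to 3.37. Over 10 markers of microglia and macrophages it was 10.85 to 12.70, 8.39 to 8.81 and 11.73 to 12.40. All 10 of these were called higher by limma (adjusted p under 0.05) in embryonic fragments than in rest of brain. Of all tested genes 28.9% were called higher there. Arrays correlated at r = 0.978 to 0.993 within groups and at 0.569 to 0.866 between groups over 12009 tested genes, which are not independent replicates. Array medians were 3.58 to 3.67.

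The ligand and its receptor shared a pattern. Both were bright in embryonic fragments, dim in the embryonic brain tissue around the vessels, and much dimmer in adult fragments than in embryonic ones. Apln differed 175-fold and Aplnr 244-fold between embryonic fragments and rest of brain, and they were 61.2-fold and 33-fold lower in adult than in embryonic fragments. The latter fold moved most, being 90.4-fold by the dimmer probe set of Aplnr and, as a log2 difference, -5.72 without adult replicate 3 and -4.46 without adult replicate 1. The endothelial markers, described further on, were also far brighter in embryonic fragments than in rest of brain, but were at similar levels at both ages.

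For Apln, the 250 bases before its start site are shown, since both genes moved together and hypoxia-inducible and ETS factors, the latter the main endothelial family, are the regulators usually named for such genes. The sequence is RefSeq's for GRCm38.p6, chrX:48034854-48035103 on the minus strand, with matches to the ETS core GGAA, read on either strand, in capitals.
Apln promoter: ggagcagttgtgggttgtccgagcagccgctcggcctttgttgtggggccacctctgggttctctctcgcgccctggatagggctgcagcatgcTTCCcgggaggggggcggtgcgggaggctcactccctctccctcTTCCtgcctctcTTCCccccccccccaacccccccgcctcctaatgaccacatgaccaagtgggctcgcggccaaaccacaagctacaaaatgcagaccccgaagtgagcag
The window held 3 matches to GGAA, all on the opposite strand, starting 156, 112 and 100 bases before the start site. Such a match is common, since 93.4% of 32851 mouse promoter windows of this length hold at least 1. The hypoxia core (ACGTG or GCGTG, either strand) had 0 matches here and was in 38.6% of windows. The SOX core ACAAT, either strand, had 0 matches and was in 27.7%. Only the letters ACAAT were searched, and other forms of a SOX site were not looked for. For each of these cores, the hypoxia core included, the rest of the gene and its surroundings were not searched.

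Apln, the ligand, was at 12.26, 12.10 and 11.52 in embryonic fragments (11.96 ± 0.39). In rest of brain it was at 4.72, 4.47 and 4.35 (4.51 ± 0.19). In adult fragments it was at 6.39, 5.30 and 6.39 (6.03 ± 0.63). All arrays lay above 4, and the groups did not overlap in any of the 3 comparisons. Of all tested genes limma called 66.1%, 57.1% and 76.0% in these comparisons (embryonic fragments against rest of brain, adult against embryonic fragments, adult fragments against rest of brain), so a separation of the groups is common here. In the last of them 33.1% were called higher and 42.9% lower. The order was embryonic fragments, adult fragments, rest of brain, and neighbours in it were apart by more than their spread between the embryonic and adult fragments (a gap of 5.13 between the nearest arrays). Between adult fragments and rest of brain the gap was 0.58, smaller than the SD of the adult arrays. As log2 differences ± SE, embryonic fragments were above rest of brain by 7.45 ± 0.31, adult fragments differed from embryonic ones by -5.94 ± 0.31, and adult fragments were above rest of brain by 1.51 ± 0.31.

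Aplnr, the receptor, is represented by the brighter of its probe sets, whose identifier marks probes shared by several transcripts of 1 gene. It was at 14.79, 14.72 and 14.75 in embryonic fragments (14.75 ± 0.04). In rest of brain it was at 7.17, 6.04 and 7.26 (6.82 ± 0.68). Embryonic arrays of the same kind were therefore close together in fragments and more spread in rest of brain, and no array of one kind reached the other. In adult fragments it was at 8.54, 9.52 and 11.06 (9.71 ± 1.27), so that the 3 adult arrays covered 2.52 log2 units. The differences were 7.93 ± 0.58 between embryonic fragments and rest of brain, -5.05 ± 0.58 between adult and embryonic fragments, and 2.88 ± 0.58 between adult fragments and rest of brain, with no overlap of arrays in any of them. The nearest arrays of adult fragments and rest of brain were 1.28 apart, about the SD of the adult arrays.

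By the dimmer probe set of Aplnr embryonic fragments again stood far above the other groups, and those groups were not apart. It was at 11.48, 11.23 and 11.35 in embryonic fragments (11.36 ± 0.12) and at 3.25, 3.26 and 3.16 in rest of brain, under 4 on every array. Embryonic fragments were thus at least 164-fold higher by this probe set. In adult fragments it was at 3.09, 4.83 and 6.65 (4.86 ± 1.78), with replicate 1 under 4, and these arrays overlapped those of rest of brain. Adult and embryonic fragments differed by -6.50 ± 0.72, a larger difference than by the brighter probe set. By either probe set adult replicate 1 was the lowest of the adult arrays and replicate 3 the highest.

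**Figure D1:**
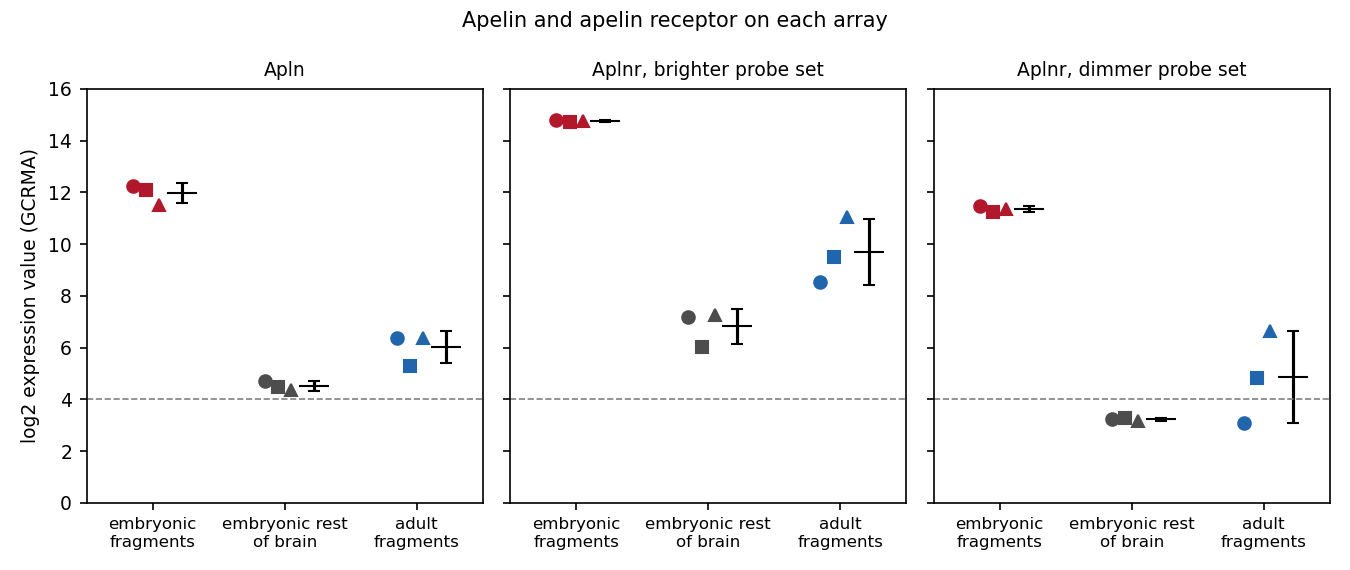
Log2 expression value (GCRMA) of the probe set of Apln and of both probe sets of Aplnr on each of the 9 arrays, with circles, squares and triangles for replicates 1, 2 and 3, and the mean ± SD of the group in black. The dashed line is the value of 4 taken as the edge of background. Embryonic fragments sit highest in each panel, and the adult values of Aplnr spread from 8.54 to 11.06 by one probe set and from 3.09 to 6.65 by the other.

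Set against all tested genes, both were among the largest differences of the series. Between embryonic fragments and rest of brain, 48 of 12009 genes had a larger positive difference than Aplnr and 70 a larger one than Apln. Between adult and embryonic fragments, 60 genes had a more negative difference than Apln and 108 than Aplnr. These places rank fitted differences, also where a gene lay at background in 1 group. Both genes were chosen by their values in these groups, so high places were to be had and are a description only. In adult against rest of brain the places were 2234 for Apln and 1218 for Aplnr, counted from the highest. In these bulk samples, fewer cells of a type and less RNA per cell cannot be told apart.

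A description relative to endothelial content was added after the data were seen, by taking each array's value minus its mean over the 11 endothelial markers. Relative to these markers Apln was at -0.87 ± 0.34 in embryonic fragments, -0.76 ± 0.22 in rest of brain and -6.52 ± 0.57 in adult fragments. The embryonic groups overlapped on this scale, and each adult array was lower than every embryonic one. Aplnr was at 1.92 ± 0.16, 1.56 ± 0.46 and -2.84 ± 1.15. Its adult arrays, at -3.93, -2.95 and -1.64, were likewise below every embryonic array. On this scale the difference of embryonic fragments from rest of brain was -0.11 for Apln and 0.37 for Aplnr, and adult fragments fell below rest of brain, at -5.76 and -4.40. The values of rest of brain on this scale are uncertain, since 4 of the markers lay at background there.

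The endothelial markers themselves differed far less between the ages. Between embryonic fragments and rest of brain 11 of 11 were called higher by limma (adjusted p under 0.05), with a median of 6.93, beside 28.9% of all tested genes called higher and 37.2% lower, and a median of -0.10 over all genes. Between adult and embryonic fragments 2 were called higher and 5 lower, with a range of -1.41 to 0.71 and a median of -0.16. All genes had 27.4% called higher and 29.7% lower in that comparison and a median of -0.02. No endothelial marker had a difference as negative as that of Apln or Aplnr.

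**Figure D2:**
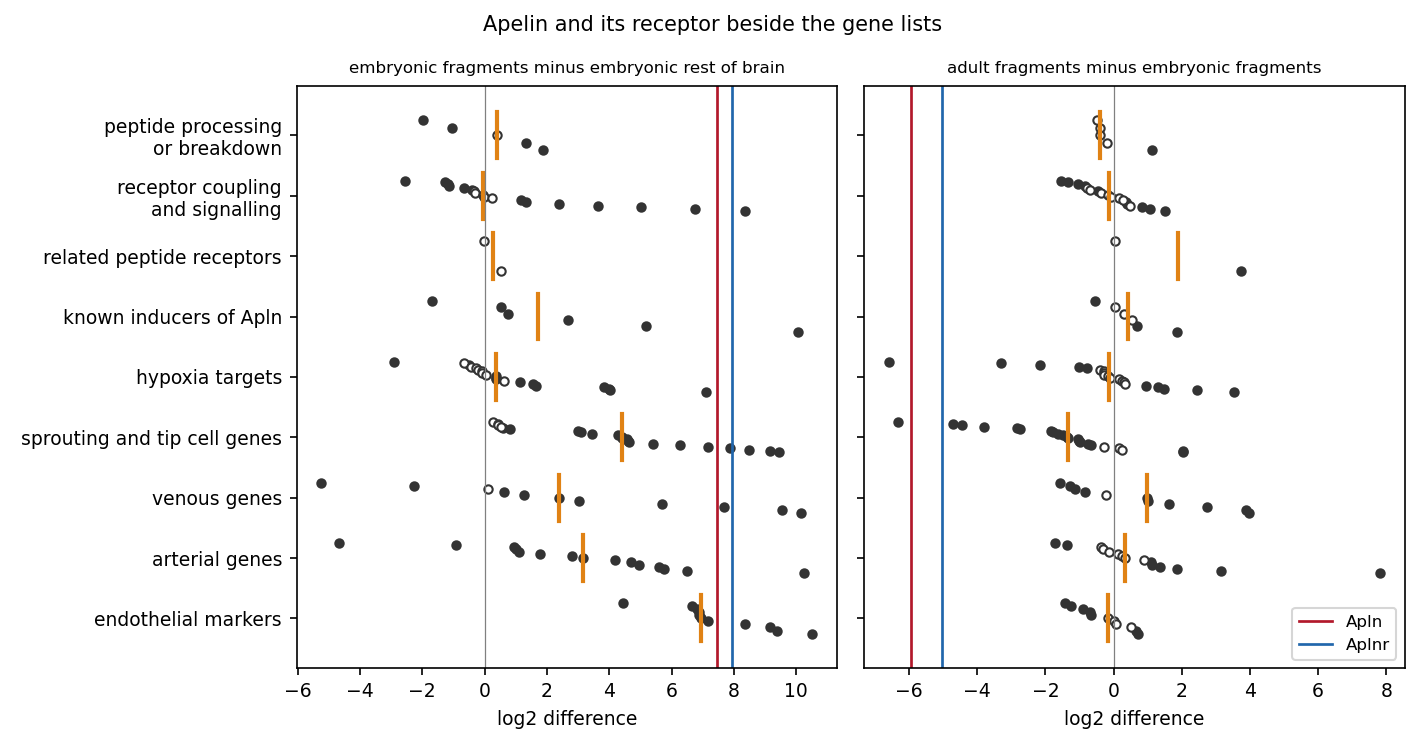
Log2 differences of the tested members of 8 gene lists and of the endothelial markers, markers of other cell types not being plotted, 1 point per gene, for embryonic fragments minus rest of brain (left) and adult minus embryonic fragments (right), filled where limma's adjusted p was under 0.05 and open elsewhere, with the median of the list in orange. Vertical lines mark Apln (7.45 and -5.94) and Aplnr (7.93 and -5.05). On the left both lie among the endothelial markers, and on the right both lie beyond every plotted gene except Cxcr4 and Egln3.

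Apela was not measurable. Its probe sets were between 2.33 and 2.49 and between 2.98 and 3.09 on the 9 arrays, all under 4. Of the 8 genes on the array for this ligand and for peptide processing or breakdown, 5 were tested. In embryonic fragments against rest of brain 2 were called higher and 2 lower, beside 28.9% and 37.2% of all genes. Furin, a convertase that cuts the precursor, was higher in embryonic fragments than in rest of brain by 1.89 ± 0.22 (8.44 ± 0.07 against 6.56 ± 0.09, limma adjusted p = 6.4e-05). Pcsk7, a convertase of the same family, was higher by 1.33 ± 0.24 (adjusted p = 9.62e-04). Mme, neprilysin, was lower, at 4.53 ± 0.58 against 6.49 ± 0.41 (limma adjusted p = 0.00144). Pcsk6 was lower too (a difference of -1.06, adjusted p = 0.0279), but not when replicate 1 or 2 of either embryonic group was left out, nor with no filter or with the replicate block on the 6 embryonic arrays (adjusted p up to 0.0899). Between the ages Mme was the 1 called gene of the 5 (1.13 ± 0.37, limma adjusted p = 0.0291). Of all genes 27.4% were called higher and 29.7% lower in that comparison. Mme lost the call without replicate 1 or 2 of either kind of fragment and under 2 other settings (adjusted p up to 0.0962). Furin, Pcsk5, Pcsk6 and Pcsk7 were not called, with differences of -0.20, -0.39, -0.40 and -0.48.

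Of 19 genes for the coupling of the receptor and the signals downstream, 18 were tested. In embryonic fragments against rest of brain 7 were higher and 6 lower, beside 28.9% and 37.2% of all genes, with a median of -0.05. Nos3, the endothelial nitric oxide synthase, was higher by 8.35 ± 0.38 (12.45 ± 0.27 against 4.10 ± 0.88, under 4 on 1 array of rest of brain, limma adjusted p = 1.24e-07). Klf2, a transcription factor of endothelium under flow, was higher by 6.74 ± 0.19 (adjusted p = 7.52e-09). Fgfr1, a receptor of fibroblast growth factors, and Gnaq, a G protein subunit, were lower, with differences of -2.54 and -1.28 (adjusted p = 5.28e-07 and 7.94e-06). Gnai2, an inhibitory G protein subunit, was at 13.88 ± 0.09 against 12.69 ± 0.17 and was among the higher genes.

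Between the ages 5 of these 18 were higher and 5 lower, near the share over all genes (27.4% and 29.7%), with differences of -1.55 to 1.51. Klf4, a transcription factor related to Klf2, rose by 1.51 ± 0.11 in adult fragments (14.76 ± 0.06 against 13.25 ± 0.02, limma adjusted p = 7.42e-06), and Hdac5, a histone deacetylase, by 1.06 ± 0.20 (adjusted p = 0.00193). Gnai1, another inhibitory subunit, had a difference of -1.55 and Hdac4 one of -1.35 (adjusted p = 3.5e-05 and 8.27e-05). Nos3 had a difference of -0.70 that was not called (adjusted p = 0.145), though 4 alternatives called it (adjusted p down to 0.0092) and its groups did not overlap.

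Receptors related to Aplnr by sequence, those of angiotensin and bradykinin with Gpr15 and Gpr25, were mostly dark, 5 of 7 failing the filter. Agtr1a, an angiotensin receptor, was at 5.91 ± 0.12 in embryonic fragments, 5.38 ± 0.45 in rest of brain and 5.96 ± 0.62 in adult fragments, and was called in neither comparison, though it passed between the embryonic groups with the replicate block on their 6 arrays. Agtr1b was under 4 on every embryonic array and at 6.03, 6.68 and 5.24 in adult fragments, at least 3.95-fold higher than in embryonic ones (limma adjusted p = 1.3e-05). It passed the filter through the adult arrays alone, so it had to differ there.

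Of 6 genes known to induce Apln, all were tested. Tek, the receptor of angiopoietins, and Epas1, the hypoxia-inducible factor of endothelium, were higher in embryonic fragments than in rest of brain by 10.04 ± 0.28 and 5.18 ± 0.12 (limma adjusted p = 6.22e-09 and 3.02e-09; Tek under 4 on 2 arrays of rest of brain). Angpt1, a ligand of Tek, was lower (-1.68, adjusted p = 0.00135), and the other 5 of the 6 were called higher, beside 28.9% of all genes. Between the ages Angpt1 rose by 1.85 ± 0.32 in adult fragments (adjusted p = 0.00111). Epas1 was called higher by 0.68 and Arnt, its partner, had a called difference of -0.53, but the direction of both turned with another choice of probe set, to -0.33 for Epas1 and to as much as 0.85 for Arnt. Hif1a was at 13.81 ± 0.02 in adult and 13.76 ± 0.14 in embryonic fragments and was not called, and its direction turned under 3 alternatives, to as much as -1.74 with other probe sets.

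Of 20 hypoxia targets tested, 10 were higher and 2 lower in embryonic fragments than in rest of brain, beside 28.9% and 37.2% of all genes, with a median of 0.37. Adm, the vascular peptide adrenomedullin, was higher by 7.09 ± 0.19 (11.81 ± 0.39 against 4.71 ± 0.01, limma adjusted p = 5.23e-09) and Ankrd37 by 4.02 ± 0.22 (adjusted p = 4e-07). Vegfa, the growth factor, had a difference of -2.90 (adjusted p = 1.03e-05), and Mxi1 one of -0.50 (adjusted p = 0.0184), which did not pass when replicate 3 of the embryonic fragments or replicate 1 or 2 from rest of brain was left out, or with other probe sets. Between the ages 5 rose and 5 fell, near the share over all genes (27.4% and 29.7%), with a median of -0.14. Egln3, an oxygen-sensing hydroxylase, fell from 8.59 ± 0.43 to under 4 on every adult array, at least 24.1-fold, and Adm fell by 3.31 (to 8.35, 8.50 and 8.65) (adjusted p = 9.39e-08 and 1.76e-06). Egln3 was as bright in rest of brain, at 8.85 ± 0.31. P4ha2, a prolyl hydroxylase of collagen, rose by 3.55 ± 0.23 and Ndrg1 by 2.45 ± 0.40 (adjusted p = 3.81e-06 and 8.94e-04).

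Genes of sprouting and tip cells, the state that Apln marks, were mostly lower in adult than in embryonic fragments. Of 22 tested, 17 fell and 2 rose, beside 29.7% and 27.4% of all genes, with a median of -1.35. Among the 17 was Kcne3, at 7.31 ± 0.79 in embryonic fragments and under 4 on every other array. Kcne3 passed the filter through the embryonic fragments alone, so it had to be higher there than in either other group. Cxcr4, a chemokine receptor, fell from 9.97 ± 0.22 to 3.66 ± 0.55 (under 4 on 2 adult arrays, limma adjusted p = 2.45e-07) and was the 1 member with a more negative difference than Apln. Trp53i11 fell by 4.72 (10.45 ± 0.32 to 5.73 ± 0.10, adjusted p = 1.03e-07). Unlike Apln, Cxcr4 and Trp53i11 were nearly as bright in rest of brain, at 9.43 ± 0.15 and 9.86 ± 0.13, so neither was particular to vessel fragments. Fscn1, which also fell, was likewise at 15.65 ± 0.08 in rest of brain and 15.92 ± 0.14 in embryonic fragments. Nid2, a nidogen of basement membranes, had a difference of -3.79 and Dll4, the Notch ligand of tip cells, one of -1.35. Esm1, a secreted tip cell product, went the other way, at 11.01 ± 0.79 in adult and 8.98 ± 0.33 in embryonic fragments (adjusted p = 0.03), a call lost under 7 alternatives, among them the removal of any 1 embryonic fragment array or of adult replicate 2 or 3 (adjusted p up to 0.0903). Rgcc rose by 2.03 ± 0.41 (adjusted p = 0.00279), a call lost without probe sets of shared probes. Pdgfb, Nrp1 and Cd34 were not called between the ages, with differences of 0.25, 0.16 and -0.29. The direction of Nrp1 turned with another choice of probe set. In embryonic fragments against rest of brain 18 of the 22 were higher, beside 28.9% of all genes, and 4 were not called, all 22 differences being positive (0.27 or more). Cd34, a sialomucin of endothelium, led with 9.46 ± 0.27 (under 4 on 1 array of rest of brain, adjusted p = 7.93e-09), and Robo4 was at least 198-fold higher.

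Genes of veins, the vessels Aplnr is best known from, went either way between the ages. Of 11 tested, 6 rose and 4 fell in adult fragments, beside 27.4% and 29.7% of all genes, with a median of 0.99. Vcam1, an adhesion molecule, rose by 3.96 ± 0.25 and Lrg1, a venular glycoprotein, by 3.87 ± 0.63 (limma adjusted p = 3.13e-06 and 8.16e-04). Ephb4, the venous receptor of Efnb2, had a difference of -1.58 (adjusted p = 0.00165), and Slc38a5, an amino acid carrier, one of -1.28 (adjusted p = 0.0309), lost without any 1 embryonic fragment array, without adult replicate 1 or 2, or with no filter. In embryonic fragments against rest of brain 8 were higher and 2 lower, beside 28.9% and 37.2% of all genes. Vwf, the clotting glycoprotein, was higher by 10.16 ± 0.19 and Slc38a5 by 9.54 ± 0.43, each under 4 on 2 arrays of rest of brain. Vcan and Vcam1, which neural cells make as well, had differences of -5.24 and -2.28. The call of Vcam1 was lost with the probe set of the largest SD.

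Arterial genes went either way as well. Of 15 tested, 6 rose and 2 fell in adult fragments, beside 27.4% and 29.7% of all genes, with a median of 0.34. Gkn3, an arterial gastrokine, rose from 5.58 ± 0.89 to 13.40 ± 0.39 and Bmx, a kinase of arterial endothelium, by 3.14 ± 0.22 (limma adjusted p = 9.02e-07 and 6.67e-06). Gja4, a connexin, and Notch4, a Notch receptor of endothelium, fell by 1.72 and 1.37 (adjusted p = 7.18e-05 and 0.00191). In embryonic fragments against rest of brain 13 were higher and 2 lower, beside 28.9% and 37.2% of all genes. Sox17 was higher by 10.23 ± 0.37 (under 4 on 2 arrays of rest of brain), Sema3g at least 58.2-fold, and Stmn2 and Efnb2, which neurons make as well, had differences of -4.67 and -0.91.

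The spread of Aplnr over adult arrays was large. In 105 of 12009 tested genes the range over the 3 adult arrays was larger than the 2.52 of Aplnr, while for Apln, with a range of 1.09, it was larger in 1372. Apln did not follow its receptor there, being lowest on replicate 2. That array is the only adult one from a female, so sex and array cannot be told apart there. Some venous genes did, which was looked at after the values were seen. Ackr1, a chemokine scavenger of venules, was at 8.70, 9.32 and 10.78 on adult replicates 1 to 3. Emcn, endomucin of capillaries and veins, was at 11.31, 11.71 and 12.10. Both had replicate 1 lowest and replicate 3 highest, as Aplnr did. Vwf, at 14.76, 15.17 and 15.07, did not have this order, nor did Ephb4, Nr2f2, Il1r1 and Vcan. Ackr1 was about as bright in embryonic fragments (7.99 ± 0.29) as in rest of brain (7.88 ± 0.15). Selp, P-selectin of venules, failed the filter and was under 4 on replicates 1 and 2, so those have no order, and at 4.55 on replicate 3. The mean over all 12 venous genes was 9.57, 10.11 and 10.50 on these arrays, and over the 10 markers of microglia and macrophages 11.73, 11.99 and 12.40. The endothelial markers were at 12.47, 12.47 and 12.70. The order of Aplnr was found in 6 of 11 tested venous genes, 6 of 10 microglia and macrophage markers, 6 of 15 arterial genes, 7 of 22 sprouting genes, 4 of 11 endothelial markers, 1 of 11 markers of pericytes and smooth muscle, and in 25.6% of all tested genes. The part of the venous or macrophage genes in the spread of Aplnr was not tested.

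**Figure D3:**
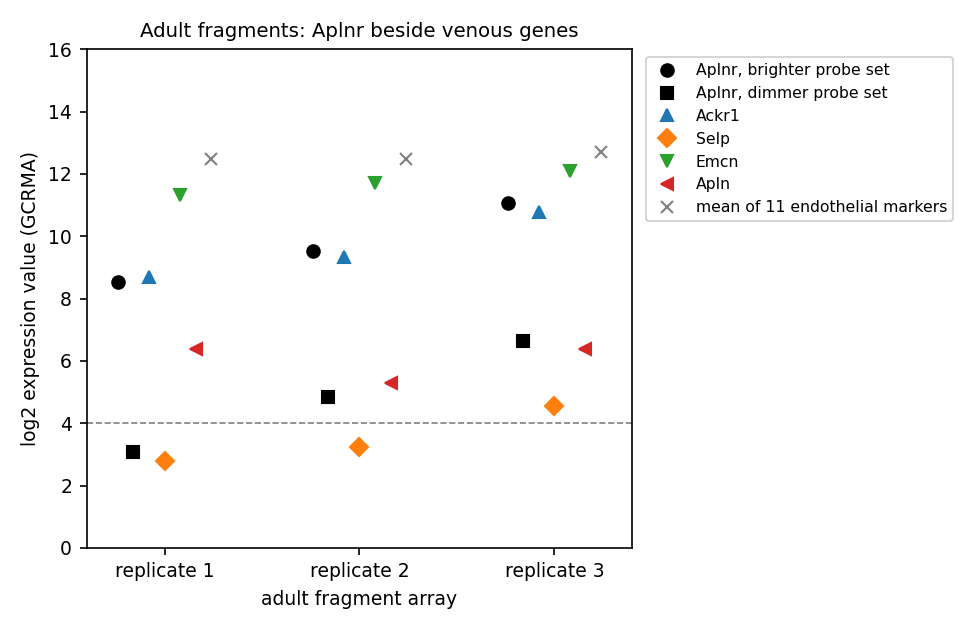
Log2 expression value (GCRMA) on the 3 adult fragment arrays for both probe sets of Aplnr, for Ackr1, Selp, Emcn and Apln, and for the mean of 11 endothelial markers, with symbols shifted sideways for legibility. The dashed line is the value of 4. Aplnr, Ackr1 and Emcn are lowest on replicate 1 and highest on replicate 3, Selp is above the line on replicate 3 alone, and Apln is lowest on replicate 2. Venous genes of another order, such as Vwf, are not plotted.

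Markers of other cell types also differed between the ages, where 27.4% of all genes were called higher and 29.7% lower. Astrocyte markers had 6 of 8 tested higher and 2 lower in adult than in embryonic fragments, with means over 9 markers of 8.98 to 9.72 against 6.47 to 7.72. Pericyte and smooth muscle markers had 6 of 11 higher and 2 lower, with means over 12 markers of 11.60 to 11.70, against at most 10.31 in embryonic fragments. Myh11, Cnn1, Tagln and Acta2, of smooth muscle, rose most, by 5.42, 5.11, 4.62 and 2.92. Cnn1 was under 4 on every embryonic array and passed the filter through the adult arrays alone, so it had to be higher there. Vtn and Rgs5 rose by 1.10 and 0.65, while Kcnj8 and Foxf2 had differences of -1.03 and -0.74. Pdgfrb, Cspg4 and Abcc9 were not called. Meningeal and choroid plexus markers had 6 of 9 higher and 1 lower, among them Kcnj13, a potassium channel of the choroid plexus, higher at 12.11 ± 0.14 against 7.61 ± 1.17 (limma adjusted p = 1.06e-04). Of 9 neuronal markers 5 were lower and 4 were not called. Among these Dcx, of immature neurons, went from 8.70 ± 0.72 to under 4 on every adult array, at least 25.9-fold, and Rbfox3, of mature neurons, from 8.71 ± 0.18 to under 4, at least 26.1-fold. Microglia and macrophage markers had 2 of 10 higher and 2 lower. The lower ones were Mrc1 and Cd163, scavenger receptors of macrophages around vessels, and Mrc1 went from 14.81 ± 0.63 to 9.97 ± 0.34, a difference of -4.84 close to that of Aplnr. Cd163 had a difference of -3.29. The part of these cell types in the differences of Apln and Aplnr was not tested. In rest of brain, where both genes were dim, all 9 tested neuronal markers were higher than in either kind of fragment.

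The genes whose pattern was most like each of the pair were found by the root mean square difference of the log2 values over the 9 arrays, after centring each on its own mean. Slco2a1, a prostaglandin transporter, was nearest to both, at 0.55 from Apln and 0.72 from Aplnr. It was at 13.39 ± 0.13 in embryonic fragments, 6.22 ± 0.04 in rest of brain and 8.37 ± 0.19 in adult fragments. Next for Aplnr came Pcdh12, a protocadherin of endothelium, at 0.73, then Apln itself, at 0.93, Adm at 0.96 and Slc7a8, an amino acid transporter, at 0.97. Of all 12008 other genes the ligand was thus the third nearest to its receptor, and the receptor stood at place 13 for its ligand. By Pearson's r the ligand stood at place 89 for its receptor, and the receptor at place 139 for its ligand. Both genes were chosen by these same values, so their likeness is a description. For Apln the next were Clec1b, a receptor of platelets, at 0.65, Ctsw, a cathepsin of lymphocytes, at 0.73, Dusp2, a phosphatase, at 0.74 and Itga4, an integrin subunit, at 0.75. Clec1b, Ctsw and Dusp2 lay under 4 on every array of rest of brain and of adult fragments, so their likeness rests on the embryonic fragments and on values at background. Only 5 genes lay within 1 log2 unit of Aplnr and 16 of Apln. Pearson's r over the 9 arrays, which share their groups and so are given as a description, was 0.961 between Apln and Aplnr, 0.987 between Apln and Slco2a1 and 0.980 between Aplnr and Slco2a1.

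**Figure D4:**
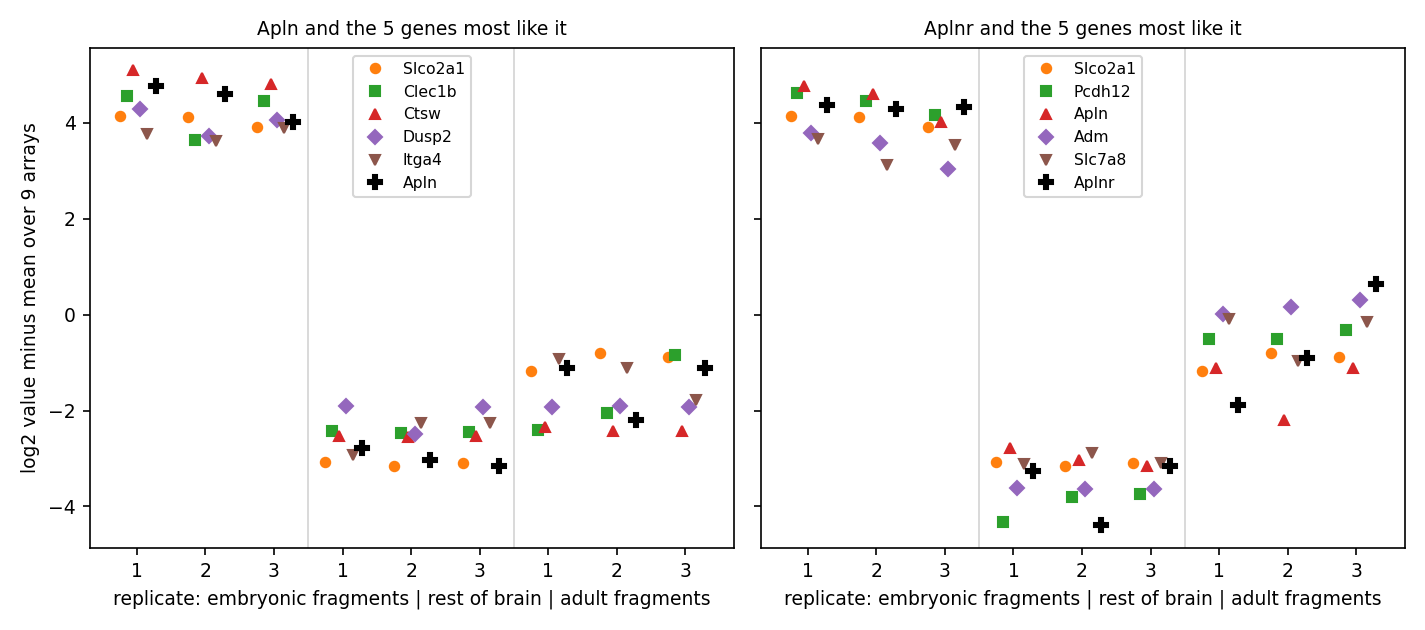
Log2 values of Apln (left) and Aplnr (right), as black crosses, and of the 5 genes nearest to each by root mean square difference, as coloured symbols, with each gene centred on its mean over the 9 arrays. The 3 blocks on the horizontal axis are the replicates of embryonic fragments, rest of brain and adult fragments. All genes are highest in embryonic fragments, and the adult values of Aplnr spread more than those of its neighbours.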

How the data were processed

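Per the submitters' processing notes, the authors used GCRMA 2.6.0 and R 2.4.1 for the deposited log2 values. GCRMA corrects each probe for background by base composition, normalizes between arrays by quantiles and sums up probe sets, so a change in total RNA per cell cannot be seen. That they are log2 was read from their range. The deposited value table was analysed, and scanner files and dates were not used here. Of 45101 probe sets, 34958 have a single gene name in the platform annotation. Each gene was represented by its brightest such probe set and tested where this reached 4 on at least 3 of 9 arrays. Limma 3.58.1 in R 4.3.3 fitted all 9 arrays with group as the factor, with Benjamini-Hochberg adjustment over 12009 genes. The fit was tested on simulated data, where 58% of genes changed by 1 log2 unit and 88% of those changed by 2 were called between adult and embryonic fragments. The simulation changed 100 of 12009 genes by each size, while limma called 57.1% of genes in the real comparison. Its rates therefore need not hold for the real data. "At least" folds set the brighter group against a value of 4. Precision is limited by how few arrays there are.

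Apln and Aplnr were chosen by their values in these same groups. The gene lists came from textbook knowledge and were chosen with earlier results of these data known. From each list, cell type markers aside, the 2 called genes with the largest differences in each direction were named. This was done for embryonic fragments against rest of brain and for adult against embryonic fragments. Other genes named were chosen for their role or after their values were seen. Embryonic samples of the same replicate number deviated together from their group means (r = 0.194, 0.199 and 0.217 over genes for numbers 1, 2 and 3). Embryonic samples of different numbers had r = -0.209 to -0.021. Adult samples are other animals, yet they reached r = 0.21 with embryonic fragments. Values of this size therefore do not settle whether the numbers pair the embryonic samples, and the fit with the replicate block was an alternative. Further alternatives were other normalizations, filters, probe set choices, an offset, array weights, the compared groups alone and each array left out. Symbols were looked up in RefSeq tables of GRCm38.p6, and the promoter of Aplnr and the proteins were not used here. Probe sets of shared probes, left out in 1 alternative, are those whose identifier ends in _a_at (probes shared by transcripts of 1 gene), _s_at or _x_at (probes that may match other genes).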

Additional observations from a re-analysis of the deposited data

How the results depend on the processing

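The differences of Apln and Aplnr kept their direction under each alternative to the fit and normalization. Leaving out 1 array, Apln differed by 7.30 to 7.67 between embryonic fragments and rest of brain, by -6.16 to -5.57 between the ages and by 1.33 to 1.88 between adult fragments and rest of brain, and Aplnr by 7.54 to 8.15, -5.72 to -4.46 and 2.21 to 3.46, the last pair being without adult replicate 3 and without adult replicate 1. An offset of 16 before the log lowered the first for Apln to 6.69, since it raises dim values. With the probe set of the largest SD, or without those of shared probes, Aplnr is represented by its dimmer probe set, with -6.50 between the ages and 1.63 against rest of brain. Relative to the mean of the endothelial markers, chosen after seeing the data, Apln turned to -0.11 between embryonic fragments and rest of brain and to -5.76 between adult fragments and rest of brain, and Aplnr moved to 0.37 and turned to -4.40. The cause was not tested. With the replicate block the differences of the pair were the same by construction (7.45 and 7.93 between embryonic fragments and rest of brain), and 7987 genes were called with all 9 arrays and 8333 with the 6 embryonic arrays, against 7939. In the fit of the 6 embryonic arrays the block ended the call of Pcsk6, brought Agtr1a past the threshold, so that 1 of the related receptors was called, and did the same for Pcsk5, P4ha2, Ddit4 and Cxcr4 between embryonic fragments and rest of brain. The arterial gene Gkn3 and the signalling gene Akt1 changed their call in both block fits, and Sox17 and Notch1 between the ages in the fit of all 9 arrays. It changed no other call in the gene lists. Counts of called genes over all alternatives were 6908 to 8686, 5815 to 7031 and 7844 to 9296 in the 3 comparisons. The 5 genes nearest by Pearson's r shared 0 members with those nearest by root mean square difference, for Apln and for Aplnr. Detection at the dim end limits the values of rest of brain.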

Other observations

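Chosen by correlation instead of distance, the genes most like Apln over the 9 arrays were Meox1, Tmem198b, Adamtsl2, Kcnj14 and Sec16a, at r = 0.994 to 0.996. Meox1, a homeobox transcription factor, was at 7.29 ± 0.17 in embryonic fragments and under 4 on every array of rest of brain. In adult fragments Meox1 was at 3.92 ± 0.19, with 2 arrays under 4. Kcnj14 was under 4 on every array of rest of brain and of adult fragments. The likeness of both thus rests in part on values at background. Adamtsl2, a secreted matrix protein, was at 10.97 ± 0.17 in embryonic fragments, 5.77 ± 0.01 in rest of brain and 7.04 ± 0.21 in adult fragments. Those most like Aplnr were Uqcc3, Tnfaip8l1, Fxr1, Mfng and Tspan14, at r = 0.991 to 0.994, among which Mfng, a glycosyltransferase that modifies Notch, was at 11.45 ± 0.21 in embryonic fragments, 9.03 ± 0.03 in rest of brain and 9.97 ± 0.39 in adult fragments. Their differences between the groups were smaller than those of Aplnr.

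Klkb1, plasma kallikrein, which can cut apelin, failed the filter. It was under 4 on every embryonic array and at 5.79, 4.76 and 2.33 on adult replicates 1 to 3, so that 2 of 3 adult arrays showed signal.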
